A study of Mus musculus with 16 samples.

Results

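The genes described here make and move bile acids in the mouse liver. They are 10 genes fixed by name: Cyp7a1, Cyp8b1, Cyp27a1, Hsd3b7, Acox2, Slc27a5, Baat, Slc10a1, Slco1b2 and Abcb11. Every row of the deposited table with 1 of these symbols was taken and rows of a symbol were summed, so the set holds 10 of 20827 gene symbols, and all 10 had at least 1 tag. The table came from livers of 16 male C57BL/6J mice that were 4 weeks old at the start. Group N (mice 4, 5, 7 and 8) ate a normal diet with 10% fat and group HF (mice 23, 25, 28 and 29) a high-fat diet with 45% fat. Groups NW (mice 11, 12, 15 and 20) and HFW (mice 34, 36, 38 and 40) ate the normal and the high-fat diet with 1% WEPAK, a krill extract that dissolves in water, mixed in. The diets were fed for 18 weeks, 4 mice were used per group, and each library came from 1 mouse, so the spread between libraries of a group covers separate animals.

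Bile acids are made from cholesterol in hepatocytes. In the classical pathway Cyp7a1 starts with the sterol ring, while in the alternative pathway Cyp27a1 starts with the side chain. Hsd3b7 then changes the ring further, Cyp8b1 sets the share of cholic acid, and peroxisomal enzymes such as Acox2 shorten the side chain. Slc27a5 and Baat join bile acids to an amino acid, mostly taurine in mice. Slc10a1 and Slco1b2 bring bile acids that return from the gut back into the hepatocyte, and Abcb11 pumps them into bile.

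Expression was counted by SuperSAGE, which reads a short tag next to the last NlaIII site (CATG) of each captured transcript. A transcript gives 1 tag whatever its length, so levels are given as CPM (tags per 1000000 tags of a library, after scaling for library composition) and need no correction for length. Tags can still be lost or split between entries, to an extent that may differ from gene to gene. An order of genes by CPM is thus an order of tags, and a low CPM need not mean few transcripts. Libraries held 56655 to 149349 tags in named genes, and 1 tag stood for 6.23 to 18.8 CPM on this scale. HF libraries were the deepest, at 91468 to 149349 tags, against 64724 to 100426 in N, 57642 to 120143 in NW and 56655 to 101481 in HFW. The liver label held against marker genes: 8 of 8 hepatocyte markers had tags, and their summed level was 46390 to 74170 CPM in N, 67210 to 83860 CPM in NW, 44300 to 54260 CPM in HF and 39650 to 71680 CPM in HFW, most of it from Apoa2 (group means of 44765 to 67186 CPM). Of 7 cholangiocyte markers 4 had tags, with Krt19, Krt7 and Cftr at 0 and a sum of 0 to 5 tags per library. The 4 adipocyte markers had 0 tags. Of the 4 ileum markers Fabp6, Fgf15 and Vil1 had 0 tags, and the ileal bile acid transporter Slc10a2 had 1, in HFW mouse 34. Stellate cell marker sums were 434 to 776 CPM in N, 322.5 to 884 CPM in NW, 409 to 3103 CPM in HF and 722 to 3410 CPM in HFW. These ranges overlapped. HF mouse 28 had 2419 CPM of the stellate marker Col3a1, against 210 to 654 CPM in the other HF mice. Of 8 Kupffer cell marker symbols, with Emr1 and Adgre1 as names of the same gene, 7 occurred in the deposited table. Of these 6 had tags, Cd68 was at 0, and the sums were 186 to 334 CPM in N, 102 to 188 CPM in NW, 85.7 to 311 CPM in HF and 70.4 to 223 CPM in HFW. Among them Vsig4 had means of 79.5 CPM in N, 13.2 CPM in NW, 97.1 CPM in HF and 33.8 CPM in HFW, a mean WEPAK effect of -2.22 (SE 0.47, adjusted p = 0.000336 by edgeR without the filter). The marker Csf1r had means of 136.13 CPM in N and 96.54 CPM in NW, but 68.99 CPM in HF and 90.84 CPM in HFW. It was thus lower with WEPAK on the normal diet and higher on the high-fat diet. Clec4f had 31.51 CPM in N, 23.06 CPM in NW, 25.35 CPM in HF and 22.007 CPM in HFW. The Vsig4 value is therefore not read as a change of the whole Kupffer cell list. The part of any marker list in the results below was not tested. In this bulk tissue, fewer cells of a type and less RNA per cell cannot be told apart. N mice 4 and 8 lay apart from the other N mice on principal component 1 of the 500 genes that varied most (scores of -16.5 and 4.90, against -4.16 and -1.16). This component held 44.5% of the variance of these genes. NW mice scored 11.1 to 15.0, HFW mice -0.25 to 6.85 and HF mice -15.6 to -8.61. N mouse 8 thus lay within the HFW range and N mouse 4 next to the HF range. The part of this component in the results below was not tested.

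The deposited table names RefSeq entries and holds no tag sequences, so the tags given here are the ones the protocol would yield, and those the authors counted may differ. For each gene the 26 bases from the last CATG were read from the GENCODE M21 transcript (GRCm38) that matches the RefSeq entry of the table. They are printed 5′ to 3′ with the NlaIII site in capitals. These 6 genes are shown because the results below turn on them, and Slc10a1 is shown with both of its tags.
Acox2: CATGaaaggatgttcatcatattatt
Slc10a1, entry NM_011387: CATGtctagggtttctttaatttgga
Slc10a1, entry NM_001177561: CATGttgtaactcaaaaggaaataaa
Slc27a5: CATGgcccagtagtacttagagaata
Baat: CATGaaaataattatatattatcact
Cyp7a1: CATGtgtgtagaggctggaggtgatg
Hsd3b7: CATGtcttgcctctcctaacaaattc

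All of these tags lie in the 3′ untranslated region, in the last exon of the matched transcript. The Acox2 tag is at chr14:8225623-8225648 (minus strand, exon 15 of 15), the Slc27a5 tag at chr7:12988367-12988392 (minus strand, exon 10 of 10), the Baat tag at chr4:49489458-49489483 (minus strand, exon 4 of 4), the Cyp7a1 tag at chr4:6265895-6265920 (minus strand, exon 6 of 6) and the Hsd3b7 tag at chr7:127803698-127803723 (plus strand, exon 7 of 7). The 10 genes' tags occurred in transcripts of 0 other genes, except that the Hsd3b7 tag is also found in transcripts of the gene model Gm49388, so Hsd3b7 counts could include that model. The tags of Baat and Slco1b2 had the lowest GC content, at 15.4%, followed by Acox2 at 26.9%. With the tested genes cut into 4 groups by tag GC (345, 203, 304 and 183 genes), the group with the lowest GC had a median log2 fold change of 0.03 with WEPAK and the group with the highest 0.01. Baat and Slco1b2 were not among the tested genes. A median over many genes cannot show what tag GC did to a single gene, and its part in the results was not tested.

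The 2 tags of Slc10a1 belong to transcripts with different 3′ ends. The transcript of NM_011387 ends with exon 4 and holds its tag at chr12:80955665-80955690 (minus strand). The transcript of NM_001177561 has 5 exons, and its tag lies at chr12:80953214-80953239 (minus strand), further downstream in the direction of transcription. Neither transcript holds the other's tag, and a further entry, NM_001361972, shares the downstream tag. Of 1016 Slc10a1 tags, 1015 were counted for NM_011387, a share of 99.9% (exact 95% interval 99.5% to 100%), and 1 for NM_001177561, in HFW mouse 40. How tags were credited to entries is not known, so the values below are given for the gene as a whole. For Acox2 the 2 RefSeq entries share their last tag, and the table credits 402 of 405 tags to NM_001161667 and 3 to NM_053115. The 136 Hsd3b7 tags were split into 117 for NM_001040684 and 19 for NM_133943, which match 1 and the same GENCODE transcript.

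Over all 16 mice Slc27a5 was highest, at 2944 ± 822 CPM (SD, n = 16), and ranked 41st among all gene symbols. Slc10a1 followed with 698 ± 287 CPM and Acox2 with 322 ± 171 CPM, and these levels lay further apart than their SDs between Slc27a5 and Slc10a1 and between Slc10a1 and Acox2. Cyp27a1 had 119.7 ± 54.4 CPM, Hsd3b7 99.7 ± 41.9 CPM, Abcb11 75.6 ± 36.5 CPM and Cyp7a1 58.3 ± 32.3 CPM, each within 1 SD of its neighbour in this order. Slco1b2 (30.8 ± 18.3 CPM) and Baat (30.4 ± 23.9 CPM) were level, and Cyp8b1 was lowest with 12.2 ± 13.3 CPM, from 17 tags in all. Slc27a5, Slc10a1, Acox2 and Cyp27a1 passed the expression filter and were tested among 1046 genes. The other 6 genes had 17 to 136 tags over all mice, and their values come from a fit without the filter over 10171 genes.

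**Figure D1:**
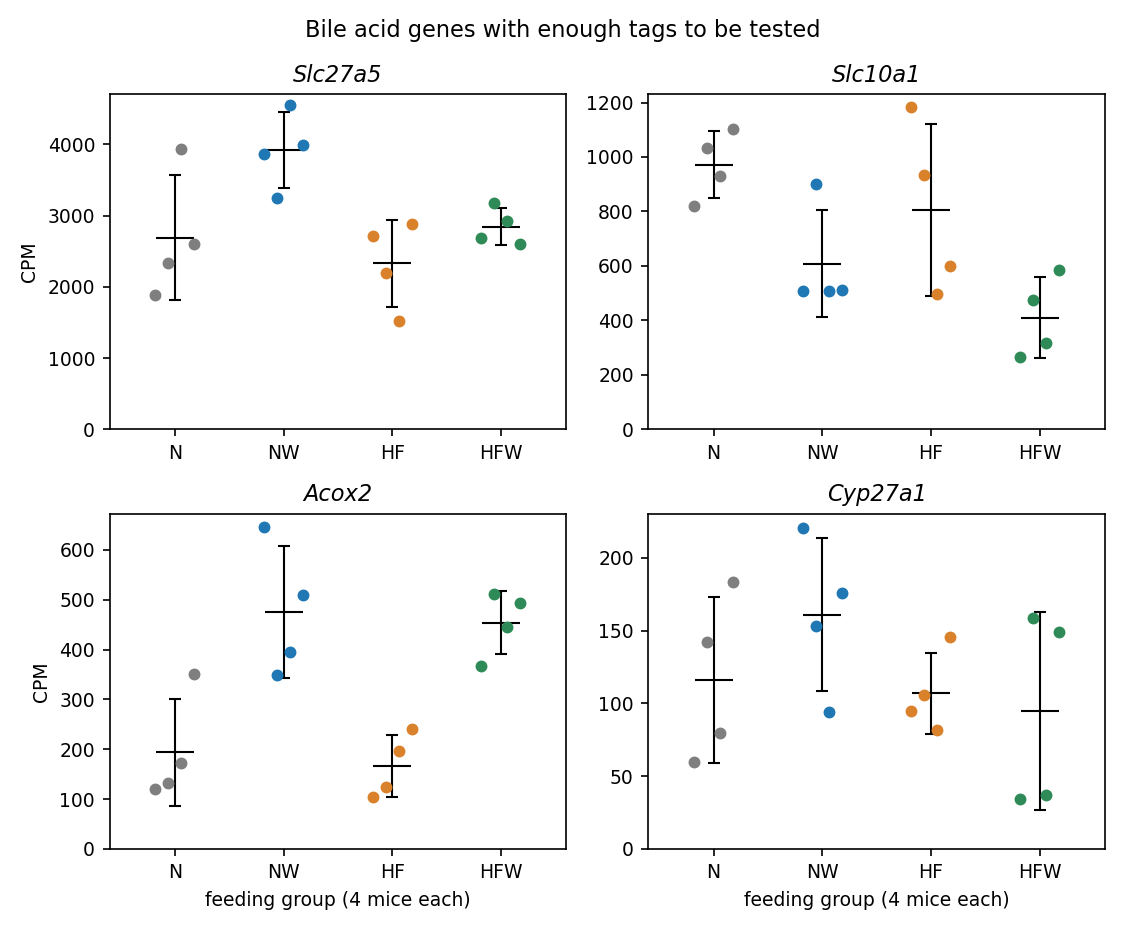
CPM (vertical axis, linear, from 0) of the 4 tested bile acid genes in each mouse (points) of the 4 feeding groups (horizontal axis), with the group mean and SD (n = 4). Acox2 is higher and Slc10a1 lower in the groups with WEPAK, and the Slc10a1 value of NW mouse 12 (903 CPM) lies apart from the 508 to 510.4 CPM of the other NW mice.

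Acox2, the peroxisomal oxidase that starts the shortening of the bile acid side chain, rose with WEPAK on both diets. On the high-fat diet it had 105, 125, 195 and 239.9 CPM in HF mice 23, 25, 28 and 29 and 367, 511, 446 and 493 CPM in HFW mice 34, 36, 38 and 40. Every HFW mouse lay above every HF mouse, and the HFW mice also had more Acox2 tags in all (138 against 82) although their libraries were smaller. The group means were 454 ± 63.9 CPM (SD, n = 4) in HFW and 166 ± 62.7 CPM in HF, a log2 fold change of 1.44 (SE 0.32, Benjamini-Hochberg adjusted p = 0.00537 in the quasi-likelihood test of edgeR). On the normal diet the N mice 4, 5, 7 and 8 had 119, 133, 173 and 351 CPM, and the NW mice 11, 12, 15 and 20 had 645, 349, 395 and 510.4 CPM. The groups overlapped at 1 point, since N mouse 8 (351 CPM) was level with NW mouse 12 (349 CPM). The log2 fold change was 1.31 (SE 0.34, edgeR adjusted p = 0.0126), with means of 475 ± 132 CPM in NW and 194 ± 107 CPM in N. It missed the threshold without N mouse 4 (1.15, adjusted p = 0.0632 by edgeR) or without N mouse 5 (1.15, adjusted p = 0.0509 by edgeR). The mean of both effects, which rest on separate mice, was 1.38 (SE 0.24), a 2.60-fold rise with 8 of 8 WEPAK-fed mice above the mean of their diet's other group (edgeR adjusted p = 7.76e-05). The difference between the 2 effects was 0.13 (SE 0.47, adjusted p = 0.997 by edgeR).

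Slc27a5 and Baat carry out the last steps, the activation of bile acids with coenzyme A and their joining to an amino acid. Neither passed the test, and both had positive values with WEPAK. Slc27a5 had 1880.1, 2339, 3933 and 2604 CPM in N mice 4, 5, 7 and 8 and 3869.8, 3252.5, 4554 and 3995 CPM in NW mice 11, 12, 15 and 20. N mouse 7 alone reached into the NW range. In the HF mice 23, 25, 28 and 29 it had 2706, 2192, 1523 and 2887 CPM, and in the HFW mice 34, 36, 38 and 40 it had 2686, 3169, 2919 and 2593 CPM, and these 2 groups overlapped. The mean effect of WEPAK on Slc27a5 was 0.42 (SE 0.18, 8 of 8 mice on the positive side, edgeR adjusted p = 0.0784). It passed under 3 of 25 alternatives: with limma-voom (0.46, adjusted p = 0.0462), with a filter of 20 counts (0.44, adjusted p = 0.0448 by edgeR) and without N mouse 7 (0.56, adjusted p = 0.0217 by edgeR). Every HFW mouse had less Slc27a5 than every NW mouse, a log2 fold change of -0.45 (SE 0.26) that did not pass (adjusted p = 0.458 by edgeR).

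Baat was counted at 0, 1, 0 and 2 tags in N mice 4, 5, 7 and 8 and at 4, 6, 2 and 4 tags in NW mice 11, 12, 15 and 20. In CPM the N mice had at most 33.4 and the NW mice at least 37.6, so the groups did not overlap. The 0 counts of N mice 4 and 7 allow levels of up to 44.8 and 39.9 CPM (3 counts), which overlaps the NW range. HF mice 23, 25, 28 and 29 had 4, 2, 1 and 0 tags and HFW mice 34, 36, 38 and 40 had 4, 3, 1 and 4 tags. The mean effect of WEPAK was 1.75 (SE 0.59), with 8 of 8 mice on the positive side, and did not pass (edgeR adjusted p = 0.0973 without the filter). An exact permutation test of its CPM within both diets gave a two-sided p of 0.00245, not adjusted, as 1 of 60 such tests over the 10 genes. Baat passed under 3 of 22 alternatives: with limma-voom (1.82, adjusted p = 0.0198), without N mouse 8 (2.26, adjusted p = 0.0349 by edgeR) and without HF mouse 23 (2.15, adjusted p = 0.0410 by edgeR). Each of these mice had the most Baat of its group, so leaving it out raises the effect.

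Cyp7a1, Cyp8b1, Cyp27a1 and Hsd3b7, which start a pathway or act on the sterol ring, had a lower mean CPM than Acox2, and 0 of them passed. Only Cyp27a1 among them was in the filtered test, where 31.3% of all tested genes were called in the mean WEPAK effect. The lack of a call is therefore not read as a lack of response. Cyp7a1, the rate-limiting enzyme of the classical pathway, had 5, 5, 6 and 3 tags in N mice 4, 5, 7 and 8 and 0, 4, 2 and 2 tags in NW mice 11, 12, 15 and 20. In CPM the N mice had 47.3 to 79.7 and the NW mice 0 to 37.6, so these groups did not overlap. The count of 0 in NW mouse 11 allows up to 50.9 CPM, which reaches into the N range. The log2 fold change was -1.14 (SE 0.68, edgeR adjusted p = 0.664 without the filter), and the exact two-sided permutation p was 0.0286, the smallest that 4 against 4 mice can give. On the high-fat diet Cyp7a1 had 4, 14, 8 and 10 tags in HF mice 23, 25, 28 and 29 and 6, 7, 5 and 1 in HFW mice 34, 36, 38 and 40. The HFW mice spanned 9.29 to 123 CPM and enclosed the HF range of 42.0 to 87.2 CPM. The mean WEPAK effect on Cyp7a1 was -0.74 (SE 0.43, adjusted p = 0.585 by edgeR).

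Cyp8b1, which directs synthesis towards cholic acid, had 2, 1, 2 and 1 tags in N mice 4, 5, 7 and 8 and 1, 0, 0 and 0 in NW mice 11, 12, 15 and 20. HF mice had 0, 5, 1 and 0 tags and HFW mice 0, 0, 2 and 2, in the order of their numbers. The mean WEPAK effect on Cyp8b1 was -1.06 (SE 0.81, 95% interval -2.64 to 0.52) and did not pass (adjusted p = 0.737 by edgeR). Cyp27a1, the mitochondrial hydroxylase of the alternative pathway, had 59.7 to 184 CPM in N, 94.1 to 221 CPM in NW, 81.4 to 146 CPM in HF and 34.4 to 158 CPM in HFW. All 4 ranges overlapped. HFW mice 34 and 38, with 3 and 2 tags, were lowest, while HFW mice 36 and 40 had 9 and 16 tags. Its log2 fold change was 0.46 (SE 0.44) in NW against N and -0.14 (SE 0.44) in HFW against HF, and the mean effect was 0.16 (SE 0.31, edgeR adjusted p = 0.732). Hsd3b7, the dehydrogenase that acts on the ring after the first hydroxylation, had 44.8 to 104 CPM in N and 102 to 123 CPM in NW. Its highest value, 229 CPM, was in HFW mouse 36, the other HFW mice had 68.9 to 112 CPM, and the HF mice had 60.0 to 118 CPM. The mean WEPAK effect on Hsd3b7 was 0.34 (SE 0.33, edgeR adjusted p = 0.877 without the filter).

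**Figure D2:**
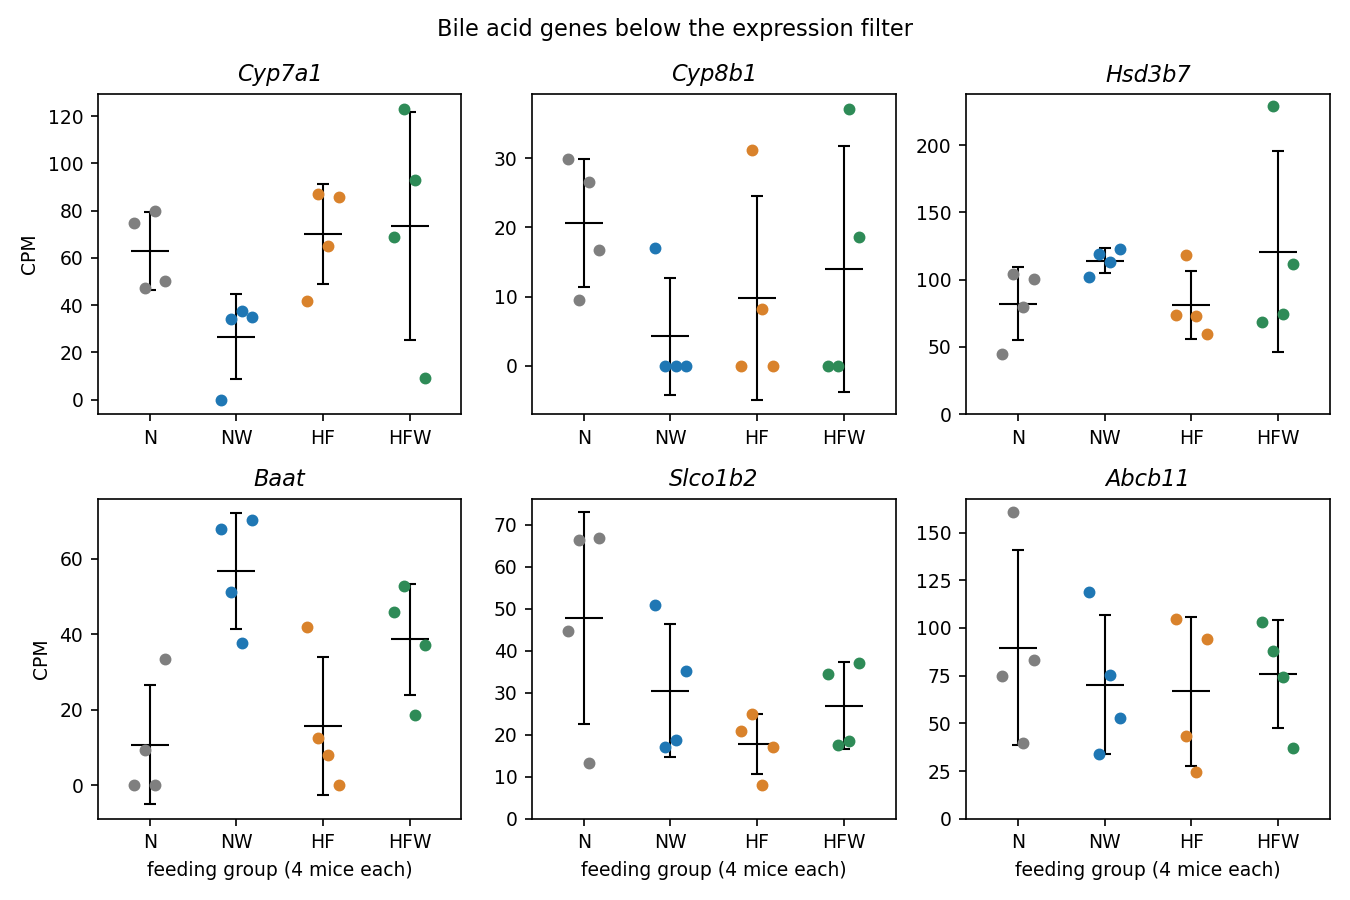
CPM (vertical axis, linear, from 0) of the 6 bile acid genes below the expression filter in each mouse (points) of the 4 feeding groups (horizontal axis), with the group mean and SD (n = 4); 1 tag stands for 6.23 to 18.8 CPM. Baat is higher and Cyp7a1 lower in NW than in N without overlap, and Hsd3b7, Slco1b2 and Abcb11 overlap between all groups of the same diet.

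Slc10a1, the sodium-coupled transporter that takes up most conjugated bile acids from portal blood, fell with WEPAK. On the high-fat diet it had 1185, 934, 497 and 599.7 CPM in HF mice 23, 25, 28 and 29 and 264, 475, 316 and 586 CPM in HFW mice 34, 36, 38 and 40. The HF mice formed a high pair (23 and 25) and a low pair (28 and 29), and HFW mouse 40, at 586 CPM, lay between the 2 mice of the low pair. The log2 fold change was -0.95 (SE 0.30, edgeR adjusted p = 0.0420), with means of 410.2 ± 147 CPM (SD, n = 4) in HFW and 804 ± 315 CPM in HF. This call was near the threshold. It did not pass with limma-voom (-0.92, adjusted p = 0.0531), in a fit of HF and HFW alone (-0.95, adjusted p = 0.0592 by edgeR), or by edgeR without N mouse 7 (adjusted p = 0.0550), NW mouse 11 (0.0530), NW mouse 15 (0.0529), HF mouse 23 (0.159), HF mouse 25 (0.139), HFW mouse 34 (0.116), HFW mouse 36 (0.0584) or HFW mouse 38 (0.126).

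On the normal diet the N mice 4, 5, 7 and 8 had 821, 1032, 930.2 and 1102 CPM of Slc10a1, and the NW mice 11, 12, 15 and 20 had 509, 903, 508 and 510.4 CPM. All NW mice but mouse 12 lay below every N mouse. The log2 fold change of -0.65 (SE 0.30) did not pass (edgeR adjusted p = 0.146), nor did it without NW mouse 12 (-0.94, adjusted p = 0.0684 by edgeR). The mean of both effects was -0.80 (SE 0.21), or 0.575-fold, with 8 of 8 WEPAK-fed mice below the mean of their diet's other group (edgeR adjusted p = 0.00556). The difference between the effects on the 2 diets was -0.29 (SE 0.43, adjusted p = 0.997 by edgeR). Of 6 hepatocyte markers tested in the mean WEPAK effect, 5 had positive values, 1 rose (Ttr, 0.85, edgeR adjusted p = 0.0141) and 0 fell, with a median of 0.25 against 0.03 for all tested genes. Of all tested genes 15.2% rose and 16.1% fell in it, so 1 call among 6 markers is near the general share. The part of the hepatocyte markers in the Slc10a1 result was not tested.

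The other transporters did not pass. Slco1b2, which takes up bile acids without sodium, had 3, 7, 1 and 4 tags in N mice 4, 5, 7 and 8, 3, 2, 1 and 2 in NW mice 11, 12, 15 and 20, 2, 4, 1 and 2 in HF mice 23, 25, 28 and 29 and 3, 1, 1 and 4 in HFW mice 34, 36, 38 and 40. Its mean WEPAK effect was -0.15 (SE 0.57, adjusted p = 1.00 by edgeR without the filter). Abcb11, the export pump for bile salts, had 39.9 to 161 CPM in N, 34.1 to 119 CPM in NW, 24.4 to 105 CPM in HF and 37.2 to 103 CPM in HFW, so that all 4 ranges overlapped. The mean WEPAK effect on Abcb11 was -0.29 (SE 0.37, adjusted p = 1.00 by edgeR without the filter). The 95% intervals of these effects, -1.26 to 0.96 for Slco1b2 and -1.02 to 0.44 for Abcb11, include both 0 and the value of Slc10a1.

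**Figure D3:**
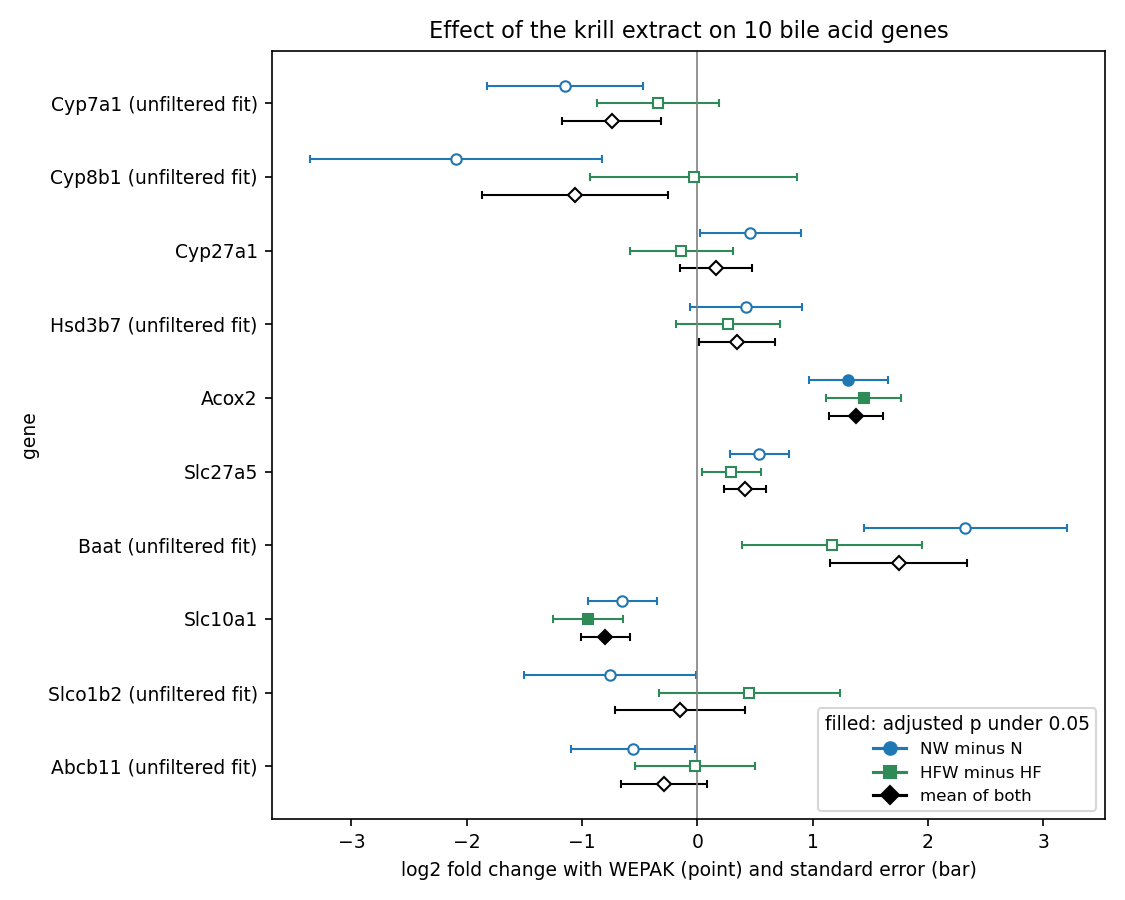
Log2 fold change with WEPAK (horizontal axis; points, with the standard error as bars) for the 10 genes (vertical axis, in pathway order) on the normal diet (circles), on the high-fat diet (squares) and as the mean of both (diamonds); filled symbols passed at an adjusted p under 0.05. Acox2 is filled in all 3, at 1.31, 1.44 and 1.38, and Slc10a1 on the high-fat diet and in the mean, at -0.95 and -0.80.

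In counts, 1 of the 4 tested genes rose (Acox2) and 1 fell (Slc10a1) in HFW against HF, where edgeR called 9.85% of all 1046 tested genes, 4.21% higher and 5.64% lower. In NW against N, 1 of 4 rose (Acox2) and 0 fell, against 11% of all genes, 3.63% higher and 7.36% lower. In the mean of both WEPAK effects 1 of 4 rose and 1 fell, against 31.3% of all genes, 15.2% higher and 16.1% lower. The median log2 fold change of the 4 genes in that mean was 0.29, and that of all tested genes was 0.03. With 4 tested genes these shares are coarse, and nothing particular to the set is read from them. Of the 6 genes below the filter 0 passed in any of these comparisons by edgeR, with 1 (Baat) at an unadjusted p under 0.05 in NW against N and in the mean.

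Acox2 and Slc10a1 moved in opposite directions between the groups, but much less so from mouse to mouse within a group. Over the 16 libraries the Pearson correlation of their log2 CPM was -0.64, and for deviations from the group means it was -0.23. N mouse 8 and NW mouse 12 had high Slc10a1 (1102 and 903 CPM) together with nearly the same Acox2 (351 and 349 CPM). The mice with the least Slc10a1, HFW 34 and 38, did not have the most Acox2.

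**Figure D4:**
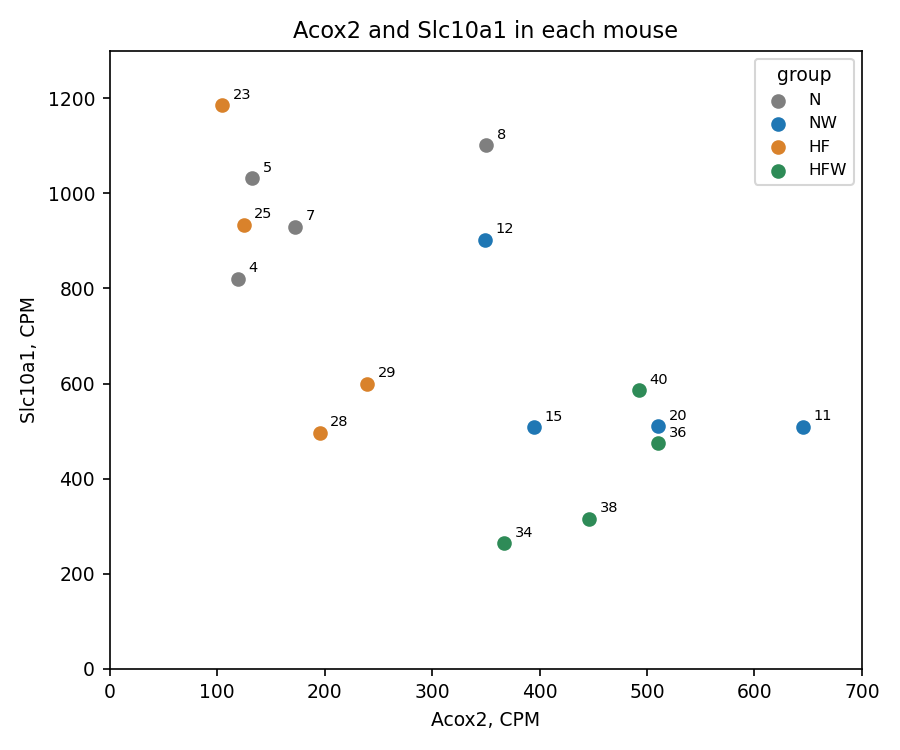
Slc10a1 (vertical axis, CPM) against Acox2 (horizontal axis, CPM) in each of the 16 mice, coloured by feeding group and labelled with the mouse number. Mice without WEPAK have at most 351 CPM of Acox2, mice with WEPAK at least 349 CPM, and NW mouse 12 has more Slc10a1 (903 CPM) than the other mice fed WEPAK.

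The high-fat diet gave no call among the bile acid genes. In HF against N 0 of 4 tested genes passed by edgeR, DESeq2 or limma-voom, and 0 had an unadjusted p under 0.05, where edgeR called 0.0956% of all genes. In HFW against NW the count was 0 by each of the 3 tools and 0 at an unadjusted p under 0.05, against 0% of all genes. The mean high-fat effect over both extract states also gave 0 by each tool and 0 at an unadjusted p under 0.05, against 0.574% of all genes. All 4 tested genes had negative values in that mean: -0.42 (SE 0.21) for Slc10a1, -0.42 (SE 0.31) for Cyp27a1, -0.33 (SE 0.18) for Slc27a5 and -0.11 (SE 0.24) for Acox2, whose sign changed without N mouse 8 (0.10). Of all tested genes 50.9% had positive values in it, with a median of 0.01. The 6 tested hepatocyte markers were all negative as well, with a median of -0.35 against -0.37 for the 4 genes. The negative sign is thus not particular to the bile acid genes, and its cause was not tested. Among the genes below the filter, Cyp7a1 had a mean high-fat effect of 0.79 (SE 0.43, adjusted p = 0.763 by edgeR) and Slco1b2 of -0.56 (SE 0.55, adjusted p = 0.972 by edgeR). The test of whether WEPAK acted differently on the 2 diets gave 0 of 4 by each tool, 0 at an unadjusted p under 0.05 and 0% of all genes.

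Around these genes, 4 lists of related genes were read in the same fit. Of 15 other genes of bile acid synthesis 4 were tested and 0 passed in any comparison. Of all tested genes 31.3% were called in the mean WEPAK effect, 9.85% in HFW against HF and 11% in NW against N. With 4 tested genes, the lack of a call is not read as a lack of response. Scp2, a sterol carrier of peroxisomes, had a mean WEPAK effect of 0.44 (SE 0.21, adjusted p = 0.109 by edgeR) and passed without N mouse 8 (0.59, adjusted p = 0.0299 by edgeR). Its last tag also occurs in the pseudogene Scp2-ps2. Por, which passes electrons to microsomal cytochromes P450, had 0.46 (SE 0.29), Slc27a2, a long-chain and bile acid-CoA ligase, 0.09 (SE 0.17) and Hsd17b4, the peroxisomal enzyme after Acox2, -0.03 (SE 0.22). The median of this list was 0.27.

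Of 16 other genes of bile acid and bile lipid transport 14 were found by symbol, all but Slc51a and Slc51b, and 4 were tested. In the mean WEPAK effect 0 rose and 1 fell, where 31.3% of all tested genes were called (16.1% lower), with a median of -0.12. The gene that fell was Ephx1, a microsomal epoxide hydrolase of detoxification that has also been linked to bile acid uptake. It had 79.7 to 189 CPM in N, 0 to 70.4 CPM in NW, 206 to 378 CPM in HF and 130.2 to 194 CPM in HFW, without overlap between WEPAK and the other group on either diet. Its mean WEPAK effect was -1.04 (SE 0.30, 8 of 8 mice lower, edgeR adjusted p = 0.0102). In NW against N it fell by 1.48 on the log2 scale (SE 0.49, edgeR adjusted p = 0.0496), a call lost under 19 of 24 alternatives. In HFW against HF the log2 fold change of Ephx1 was -0.60 (SE 0.35) and did not pass (adjusted p = 0.269 by edgeR). It was the 1 listed gene that also passed for the high-fat diet, with a mean effect of 1.49 (SE 0.30, 8 of 8 mice higher, adjusted p = 0.0221 by edgeR), a call that edgeR lost when N mouse 7 was left out (1.42, adjusted p = 0.0552), NW mouse 11 (1.46, adjusted p = 0.0501), NW mouse 15 (1.35, adjusted p = 0.0549) or HF mouse 23 (1.40, adjusted p = 0.0627). The canalicular pump Abcc2 had 0.08 (SE 0.23) with WEPAK, the basolateral pump Abcc3 -0.13 (SE 0.18) and Abcg8, part of the sterol pump into bile, -0.11 (SE 0.19).

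Of 15 regulators of bile acid genes 3 were tested, and in the mean WEPAK effect 1 rose and 0 fell, with a median of 0.38. Of all tested genes 31.3% were called in it, 15.2% higher and 16.1% lower. With 3 tested genes nothing particular to the list is read from its share. Nr1i3, the nuclear receptor CAR, rose in the mean (0.76, SE 0.26, 7 of 8 mice higher, edgeR adjusted p = 0.0256). Its groups overlapped on both diets, at 94.4 to 154 CPM in HF and 91.8 to 353 CPM in HFW and at 74.6 to 179.9 CPM in N and 158 to 264 CPM in NW. The call for Nr1i3 did not pass with limma-voom (0.68, adjusted p = 0.0561), without the filter (0.63, adjusted p = 0.323 by edgeR), without N mice 4 and 8 (0.59, adjusted p = 0.130 by edgeR), or by edgeR without N mouse 4 (adjusted p = 0.0678), NW mouse 12 (0.0722), HF mouse 23 (0.0530), HFW mouse 38 (0.0604) or HFW mouse 40 (0.0904). Hnf4a, a nuclear receptor that drives many hepatocyte genes, had 0.38 (SE 0.22) and Rxra, the shared partner of many nuclear receptors, -0.13 (SE 0.18). The bile acid receptor Nr1h4 and its target repressor Nr0b2 were below the filter.

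Of 15 genes of cholesterol supply 3 were tested, and in the mean WEPAK effect 0 rose and 1 fell, with a median of -0.29. Among all tested genes 31.3% were called there, 15.2% higher and 16.1% lower, and 3 genes are too few to compare with these shares. Stard5, a START-domain carrier of sterols, had 138 to 455 CPM in HF and 37.2 to 115 CPM in HFW, which did not overlap, and 114 to 250.4 CPM in N and 52.8 to 145 CPM in NW. Its log2 fold change was -1.22 in the mean (SE 0.30, 8 of 8 mice lower, edgeR adjusted p = 0.00317) and -1.48 in HFW against HF (SE 0.41, adjusted p = 0.0180 by edgeR). The latter passed neither with limma-voom (-1.30, adjusted p = 0.0609) nor in edgeR when HF mouse 25 (-1.03, adjusted p = 0.162) was left out, or HFW mouse 38 (-1.30, adjusted p = 0.0737). Soat2, which esterifies cholesterol in hepatocytes, had a mean effect of 0.44 (SE 0.22, adjusted p = 0.122 by edgeR), and its last tag also occurs in Zfp791. Npc1, a lysosomal cholesterol exporter, had -0.29 (SE 0.20, adjusted p = 0.288 by edgeR).

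**Figure D5:**
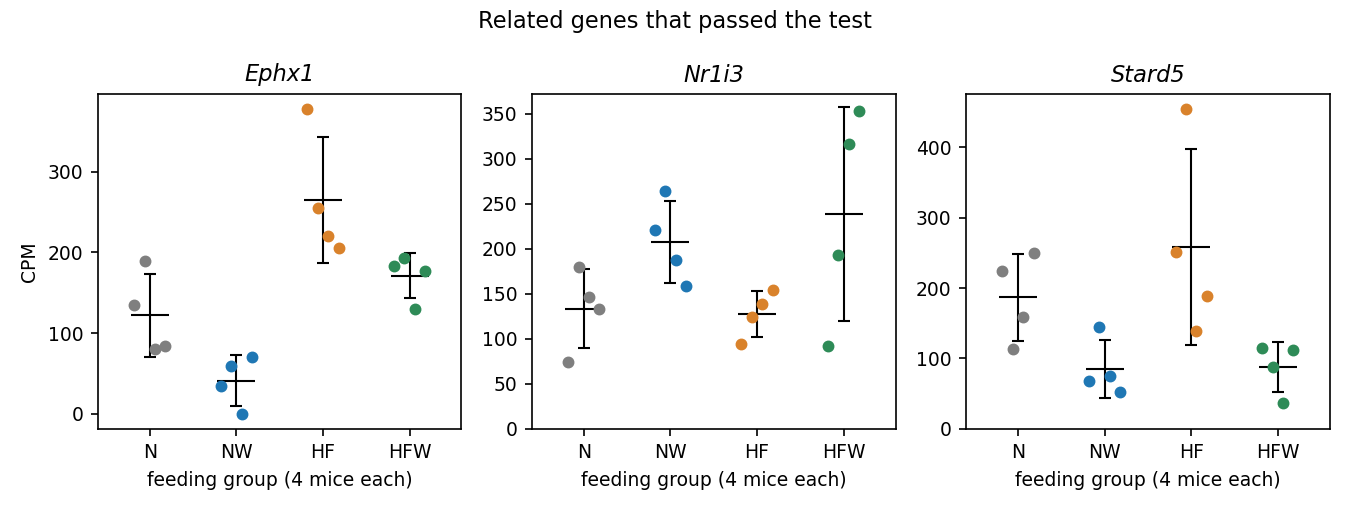
CPM (vertical axis, linear, from 0) of Ephx1, Nr1i3 and Stard5, related genes that passed the test, in each mouse (points) of the 4 feeding groups (horizontal axis), with the group mean and SD (n = 4). Ephx1 is highest in HF (206 to 378 CPM) and lowest in NW (0 to 70.4 CPM).

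The tested genes most like Acox2 over the 16 libraries, by Pearson correlation of log2 CPM, were Kdm4a, a histone demethylase (0.923), Phactr4, a regulator of protein phosphatase and actin (0.901), and Lonp2, a peroxisomal protease (0.890). For deviations from the group means the values were 0.774, 0.719 and 0.710. These genes were picked as the nearest of all tested genes in the same libraries, so high values are partly fixed by the choice. For Slc10a1 the nearest were Cyp2c29, a cytochrome P450 of drug metabolism (0.827), 2310003F16Rik (0.781) and Ndufb9, a subunit of respiratory complex I (0.776). Within groups these came to 0.710, 0.401 and 0.568. All of these points share library depth and composition, and Hsd3b7 was too low for this comparison.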

How the data were processed

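The deposited file holds raw SuperSAGE tag counts per RefSeq transcript, 1 column per mouse, per the file headers. Per the labels' protocols, cDNA primed with oligo-dT was cut with NlaIII, tags were released with EcoP15I, and tags were amplified by PCR. No molecular identifiers are named, so limits from counts cover counting error only. For tag matching and the RefSeq release, the sources used here give nothing.

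From the 26782 rows, 416 without a symbol (0.0729% of tags) were left out; 41 symbols that had become dates were restored by RefSeq entry, except 1. Counts were summed per symbol. In R 4.3.3, edgeR 4.0.16 fitted all 16 libraries with a mean per group (TMM scaling, default filter with a minimum count of 10, robust quasi-likelihood F test, Benjamini-Hochberg adjustment over all tested genes, threshold 0.05). Standard errors are the log2 fold change over the square root of F. Correlations used log2 CPM with a prior count of 2. Genes below the filter were fitted without it and by exact permutation of CPM. Library pairs within a group differed beyond counting noise (chi-square over degrees of freedom, 2.24 to 9.64).

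Alternatives were DESeq2 1.42.0 size factors and Wald test, limma-voom (limma 3.58.1), other filters, separate RefSeq rows, a fit that was not robust, only the groups compared, the 10 most abundant genes left out, and mice left out. The comparison by tag GC was chosen after seeing the data and covered 98.9% of tested genes. The code was tested on simulated data. The 10 genes and the lists were chosen with earlier results of these data known. Named are all 10 genes, list genes that passed, up to 4 per list with the smallest p, and the 3 genes most like Acox2 and Slc10a1. Of the listed regulators 1 is not reported here.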

Additional observations from a re-analysis of the deposited data

Results flagged for a closer look

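In 40 groups of 4 mice (10 genes in 4 feeding groups), 3 had 1 mouse far from the other 3 by Dixon's criterion. For normally distributed values chance gives about 1 in 20, a rate that does not hold for the genes with few tags. Slc10a1 had 903 CPM in NW mouse 12, the deepest NW library. Cyp7a1 had 0 CPM in NW mouse 11, which had a limit of 50.9 CPM. Cyp8b1 had 17.0 CPM in NW mouse 11, a single tag, while the other NW mice had 0, so that 1 tag alone set the flag.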

How the results depend on the processing

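No paired analysis was possible because the groups hold different mouse numbers. Acox2 and Slc10a1 passed for the mean WEPAK effect under all 25 alternatives, at log2 fold changes of 1.25 to 1.61 and -0.94 to -0.69. The count of bile acid genes called in HFW against HF was 2, and 1 with limma-voom, 1 in a fit of the compared groups alone, and 1 to 2 with a mouse left out; in NW against N it was 1, and 0 to 2 with a mouse left out (0 without N mouse 4 or 5, 2 without N mouse 7), and in the mean WEPAK effect 2, and 2 to 3. The cause was not tested. Values that did not pass and changed sign were those of Acox2 for the high-fat diet (0.070 without N mice 4 and 8, 0.0046 without the filter, -0.20 to 0.10 with a mouse left out), Cyp8b1 (-0.32 with limma-voom, -0.33 to 1.39), Baat (-0.11 with limma-voom, -0.33 to 0.60), Hsd3b7 (-0.088 to 0.24) and Abcb11 (-0.28 to 0.22) for the same diet, and for WEPAK Cyp27a1 (-0.58 to 0.17 in HFW against HF, -0.024 to 0.34 in the mean), Slco1b2 (-0.34 to 0.037), Hsd17b4 (-0.18 to 0.090), Slc27a2 (-0.037 without the filter) and Abcc2 (-0.012 without N mice 4 and 8, -0.038 without the filter, -0.073 to 0.22). Among all genes the counts moved by over 1.5 times in NW against N (115; 70 without the filter, 38 without N mice 4 and 8, 31 to 178 with a mouse left out), HFW against HF (103; 155 without N mice 4 and 8, 40 to 150), HF against N (1; 2 with DESeq2, 0 with limma-voom, in a fit of the compared groups alone and with a filter of 20 counts, 0 to 31), HFW against NW (0; 3 in a fit of the compared groups alone, 0 to 3) and the mean high-fat effect (6; 34 with DESeq2, 30 without the filter, 55 without N mice 4 and 8, 3 with a filter of 20 counts, 0 to 107). With a filter of 20 counts Cyp27a1 was not tested. The 6 genes below the filter had totals of 17 to 136 tags, which leaves their standard errors wide.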
